A study of Homo sapiens with 6 samples.

Results

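The Notch ligands, receptors and target genes followed here are JAG1, JAG2, DLL1, DNER, NOTCH1, NOTCH2, NOTCH3, HES1, HEY1 and NRARP. They were picked by gene symbol, with earlier results of these same arrays known, and the increases of JAG1 and DNER were among those results. Of the 10 genes, 9 have a named transcript cluster on the array, 1 each, among 53617 transcript clusters in all. A transcript cluster is the gene-level probe set of this platform. HES1 has no transcript cluster named with its symbol alone and was not measured.

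The RNA came from MDA-MB-468 cells, a triple-negative, basal-like breast cancer cell line that expresses the long non-coding RNA NRAD1 (LINC00284). One group was treated for 48 h with 15 nM of GapmeR#4, which is directed against NRAD1 (3 arrays). The other was treated in the same way, for the same time and at the same dose, with a negative control GapmeR (3 arrays). GapmeRs are modified antisense oligonucleotides that pair with an RNA so that RNase H cuts it, and both groups received the same transfection reagent. Only 1 NRAD1-directed GapmeR and 1 cell line were used for the arrays, so on them effects of losing NRAD1 and effects of the GapmeR#4 sequence cannot be told apart. For selected array genes, the paper also reports QPCR with another NRAD1-directed GapmeR and in other cell lines. Whether Notch genes were among those was not examined here. The samples are called biological replicates in the labels, which give no detail on separate cultures. The p-values here set the difference between the groups against the spread between these samples within the groups. In bulk RNA, fewer cells expressing a gene and less of its RNA per cell cannot be told apart.

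Notch receptors are single-pass membrane proteins that are activated by ligands on a neighboring cell. JAG1, JAG2 and DLL1 are such ligands, and binding exposes the receptor to an ADAM protease and then to γ-secretase, which frees its intracellular domain. In the nucleus that domain joins the DNA-binding protein RBPJ and a Mastermind coactivator (MAML) to switch on targets such as HES1, HEY1 and NRARP, and in breast cancer the pathway is studied for its part in stem-like cells.

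All values are log2 signals as deposited, without background subtraction here, and the signals of different genes are not set against each other because probes differ in brightness. The arrays had medians of 3.96, 3.97 and 4.00 with GapmeR#4 and 3.96, 3.98 and 3.98 with control GapmeR. Across all transcript clusters, Pearson correlations ran from 0.988 to 0.989 among GapmeR#4 arrays, 0.988 to 0.99 among control arrays and 0.982 to 0.985 between the groups. NRAD1 itself read 2.96, 2.99 and 2.90 on the GapmeR#4 arrays, against 3.43, 3.46 and 4.01 on the control arrays. The GapmeR#4 arrays all lay below the control arrays, with a log2 change of -0.69 (SE 0.17), but the adjusted p of 0.0908 (limma, Benjamini-Hochberg over all transcript clusters) missed the threshold of 0.05. Of 8 epithelial and basal-like markers, 6 had a named transcript cluster, with group means of 5.74 to 11.47. Of the receptors that triple-negative cells lack, ESR1 and PGR were measured, with group means of 2.51 to 4.11. Of 8 markers of immune, stromal and endothelial cells only CD68, DCN and PECAM1 were measured, and their group means ran from 1.44 (DCN) to 6.94 (CD68). No marker was called changed. The GapmeR#4 arrays all lay below the control arrays for KRT19, KRT5, EGFR, ESR1, PGR and PECAM1, with log2 changes between -0.50 (KRT19) and -0.10 (PGR). This held for 10.8% of all transcript clusters and 16.6% of those with a gene name. The part of these marker differences in the results on the Notch genes was not tested.

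With GapmeR#4, 2 Notch ligand genes were higher, JAG1 by 1.56-fold and DNER by 2.53-fold as measured. The DNER signal was below the array median on all control arrays, so it was not shown to be above background there and its fold is uncertain. No receptor gene and no target gene was called changed. All 3 GapmeR#4 arrays lay below all 3 control arrays for JAG2, NOTCH2 and NOTCH3, by differences that did not pass the test. JAG1 and DNER were the 2 of 9 measured genes called higher at an adjusted p under 0.05, and 0 of 9 were called lower, with 5 log2 changes above 0 and 4 below and a median of 0.03. Over all transcript clusters the median was 0.02, 1.15% were called higher and 1.42% lower, and among those with a gene name 1.46% were called higher and 2.41% lower. Groups that did not overlap were found for 2 genes in the higher and 3 in the lower direction, beside 12.2% and 10.8% of all transcript clusters and 15.1% and 16.6% of those with a name. Since the genes were chosen with these results known, their p-values describe the arrays and are not independent evidence. Both calls were lost when any 1 of the 6 arrays was left out.

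**Figure D1:**
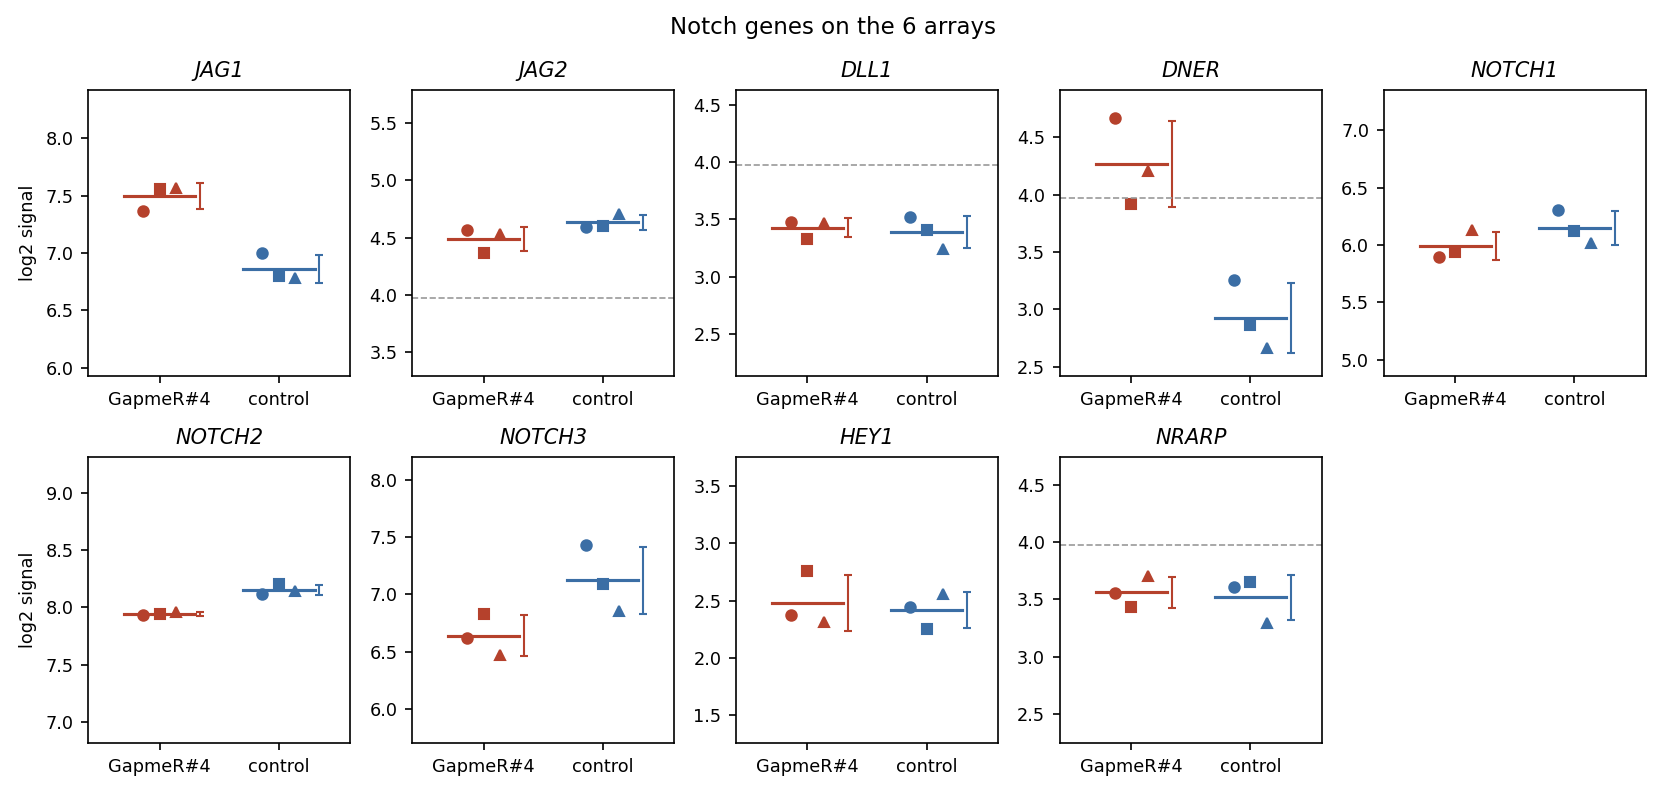
Log2 signal of the 9 measured Notch genes on each of the 3 GapmeR#4 arrays (left, red) and 3 control GapmeR arrays (right, blue). Circles, squares and triangles are replicates 1, 2 and 3. The thick line is the group mean and the thin bar beside it 1 SD on either side. The dashed line is the median of the array medians where it falls in the panel. The axes span the same range of log2 units but start at different values. JAG1 and DNER are higher on all GapmeR#4 arrays, and JAG2, NOTCH2 and NOTCH3 lower, with gaps of 0.01 for JAG2 and NOTCH3.

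JAG1 encodes Jagged 1, a ligand that binds Notch receptors on neighboring cells. Its transcript cluster, 16917183, read 7.37, 7.56 and 7.57 with GapmeR#4, against 7.00, 6.80 and 6.78 with control GapmeR. The lowest GapmeR#4 array lay 0.38 above the highest control array, and all 6 arrays were above their median signal. The group means were 7.50 ± 0.11 with GapmeR#4 and 6.86 ± 0.12 with control GapmeR (SD, n = 3 each). The log2 change was 0.64 (SE 0.11, 95% interval 0.37 to 0.91), with an adjusted p of 0.038 (limma). With 1 array left out the change stayed between 0.60 and 0.71 and the adjusted p lay between 0.0757 and 0.147.

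Promoter sequences were taken from a table of RefSeq promoters. Of the 10 genes, 7 were matched in it, and DNER, DLL1 and HEY1 are not shown. The 3 printed are those of JAG1, of the receptor gene with the lowest log2 change and of a target gene. Each is the 250 bases before the annotated start on GRCh38.p14, 5′ to 3′ on the gene's own strand. Capitals mark matches of CACGNG, the box that HES and HEY repressors bind, on either strand. The regions are chr20:10674000-10674249 (minus strand) for JAG1, chr19:15200996-15201245 (minus strand) for NOTCH3 and chr9:137302272-137302521 (minus strand) for NRARP.
JAG1: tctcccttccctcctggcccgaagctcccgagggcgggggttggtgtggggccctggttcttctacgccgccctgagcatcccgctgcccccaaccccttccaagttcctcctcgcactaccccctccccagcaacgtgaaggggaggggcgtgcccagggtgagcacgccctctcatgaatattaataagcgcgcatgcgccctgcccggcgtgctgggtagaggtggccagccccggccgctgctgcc
NOTCH3: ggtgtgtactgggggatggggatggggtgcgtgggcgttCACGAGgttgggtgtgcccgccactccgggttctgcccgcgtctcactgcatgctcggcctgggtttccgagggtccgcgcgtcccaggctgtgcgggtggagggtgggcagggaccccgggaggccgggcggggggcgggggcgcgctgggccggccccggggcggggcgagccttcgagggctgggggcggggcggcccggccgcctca
NRARP: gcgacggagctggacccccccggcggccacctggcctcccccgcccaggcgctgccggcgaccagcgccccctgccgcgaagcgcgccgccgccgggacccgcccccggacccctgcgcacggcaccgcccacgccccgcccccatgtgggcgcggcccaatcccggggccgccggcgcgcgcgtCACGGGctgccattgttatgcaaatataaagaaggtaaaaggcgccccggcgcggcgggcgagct

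The JAG1 window held no match to the RBPJ motif TGGGAA, to its longer form GTGGGAA (which contains it), to CACGNG or to the TATA box TATAAA, all searched on both strands. The NOTCH3 window held 1 CACGNG match, which began 211 bases before the start, and no RBPJ motif. The NRARP window had 1 CACGNG match that began 65 bases before the start and a TATAAA that began 41 bases before it, and also no RBPJ motif. Among 35116 promoter windows of the same length, 20.8% held TGGGAA, 5.43% GTGGGAA, 26.7% CACGNG and 10.7% TATAAA. Of the other windows, that of HES1 held 2 matches of TGGGAA, 1 of them as GTGGGAA, and 4 of CACGNG, JAG2 held 2 of CACGNG, and NOTCH1 and NOTCH2 had none of the 4 motifs. The bases G and C made up 59.2% (HES1) to 81.6% (JAG2) of the 7 windows, and 68.4% of that of JAG1, against a median of 58% over all windows.

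DNER is a transmembrane protein with epidermal growth factor-like repeats, described as a non-canonical Notch ligand and best known from neurons. Transcript cluster 16909319 read 4.67, 3.92 and 4.21 with GapmeR#4, against 3.26, 2.86 and 2.66 with control GapmeR. The groups were 0.66 apart, but only 2 arrays, both of GapmeR#4, exceeded the array median, so this is a dim signal. The means were 4.27 ± 0.38 with GapmeR#4 and 2.93 ± 0.31 with control GapmeR (SD, n = 3 each). The log2 change of 1.34 (SE 0.23, 95% interval 0.80 to 1.88) had an adjusted p of 0.0344 (limma), and with 1 array left out it ran from 1.14 to 1.52, with adjusted p of 0.0563 to 0.128. DNER had the widest spread among replicates of the 9 genes in both groups. It was also the only 1 of them past a cutoff of 1.7-fold at an unadjusted p under 0.05, both by limma (1.28% of all transcript clusters were higher at this cutoff) and by the methods' t-test (1.05%).

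JAG2, the other Jagged ligand, did not follow JAG1. It read 4.57, 4.37 and 4.53 with GapmeR#4 and 4.59, 4.60 and 4.71 with control GapmeR. All GapmeR#4 values were the lower ones, by as little as 0.01, and the order was lost after quantile normalization. The log2 change was -0.14 (SE 0.10, 95% interval -0.39 to 0.10, adjusted p = 0.573 in limma). DLL1, a Delta-like ligand, read 3.48, 3.33 and 3.47 with GapmeR#4 and 3.52, 3.41 and 3.24 with control GapmeR. The groups overlapped and every value was under the array median, with a log2 change of 0.03 (95% interval -0.23 to 0.30).

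**Figure D2:**
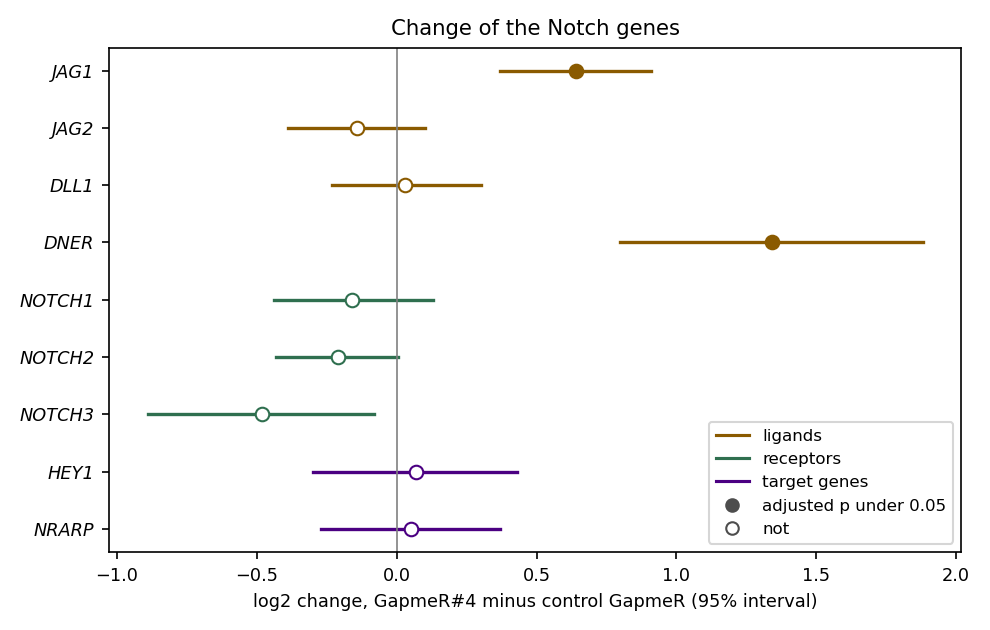
Log2 change, GapmeR#4 minus control GapmeR, of the 9 measured Notch genes with the 95% interval from limma. Filled points have an adjusted p under 0.05 and colors give the role of the gene. Only the intervals of JAG1, DNER and NOTCH3 leave out 0, and that of NOTCH2 ends at 0.0031.

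The 3 receptor genes had lower mean signals with GapmeR#4 than with control GapmeR, and none was called. NOTCH3 read 6.62, 6.83 and 6.47 with GapmeR#4, against 7.43, 7.09 and 6.85 with control GapmeR. The groups were 0.01 apart. The means were 6.64 ± 0.18 with GapmeR#4 and 7.12 ± 0.29 with control GapmeR (SD, n = 3 each). The log2 change was -0.48 (SE 0.17, 95% interval -0.89 to -0.08), with an unadjusted p of 0.026 and an adjusted p of 0.217 (limma), and it ran from -0.62 to -0.33 with 1 array left out.

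NOTCH2 had the least spread of the receptors. It read 7.93, 7.94 and 7.96 with GapmeR#4, against 8.12, 8.20 and 8.14 with control GapmeR, and the groups were 0.16 apart. Its log2 change of -0.21 (SE 0.09, 95% interval -0.43 to 0.0031) had an adjusted p of 0.304 (limma). NOTCH2 has near-identical partial copies in the NOTCH2NL genes, and how far their RNA adds to this signal was not tested. NOTCH1 read 5.90, 5.94 and 6.13 with GapmeR#4 and 6.31, 6.12 and 6.02 with control GapmeR. These groups overlapped, and the log2 change was -0.16 (95% interval -0.44 to 0.13).

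The target genes that were measured gave dim signals in both groups. HEY1, a repressor induced by Notch, read 2.37, 2.76 and 2.31 with GapmeR#4 and 2.44, 2.25 and 2.56 with control GapmeR. The groups overlapped, and 4 of the 6 values were under the lower quartile of their array. The log2 change was 0.07 (95% interval -0.30 to 0.43). NRARP encodes a feedback inhibitor that binds the Notch nuclear complex. It read 3.56, 3.43 and 3.70 with GapmeR#4 and 3.61, 3.65 and 3.29 with control GapmeR, all under the array median. Its groups overlapped too, and the log2 change was 0.05 (95% interval -0.27 to 0.37). None of the 6 arrays had HEY1 or NRARP above its median, and at signals this dim a change in RNA may not be detectable.

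Beyond these genes, a list of 57 others that act in the pathway was examined, of which 51 were measured. The other 6 were not analysed here. None of the 51 was called higher and 2, NCSTN and MAML2, were called lower (limma, adjusted p under 0.05), beside 1.46% and 2.41% of the named transcript clusters. At an unadjusted p under 0.05, 5 were higher and 8 lower by limma, beside 8.68% and 8.13% of all transcript clusters. By the methods' t-test they were 7 and 7, beside 8.14% and 7.51%. The median log2 change was -0.06, with a range of -0.65 to 0.46. In 9 of the genes the GapmeR#4 arrays all lay above and in another 9 all below the control arrays, beside 15.1% and 16.6% of the named transcript clusters. The count below was 14 without GapmeR#4 replicate 3 and 14 without control replicate 3, while over all transcript clusters it was 8504 and 8570, against 5801 with all arrays.

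**Figure D3:**
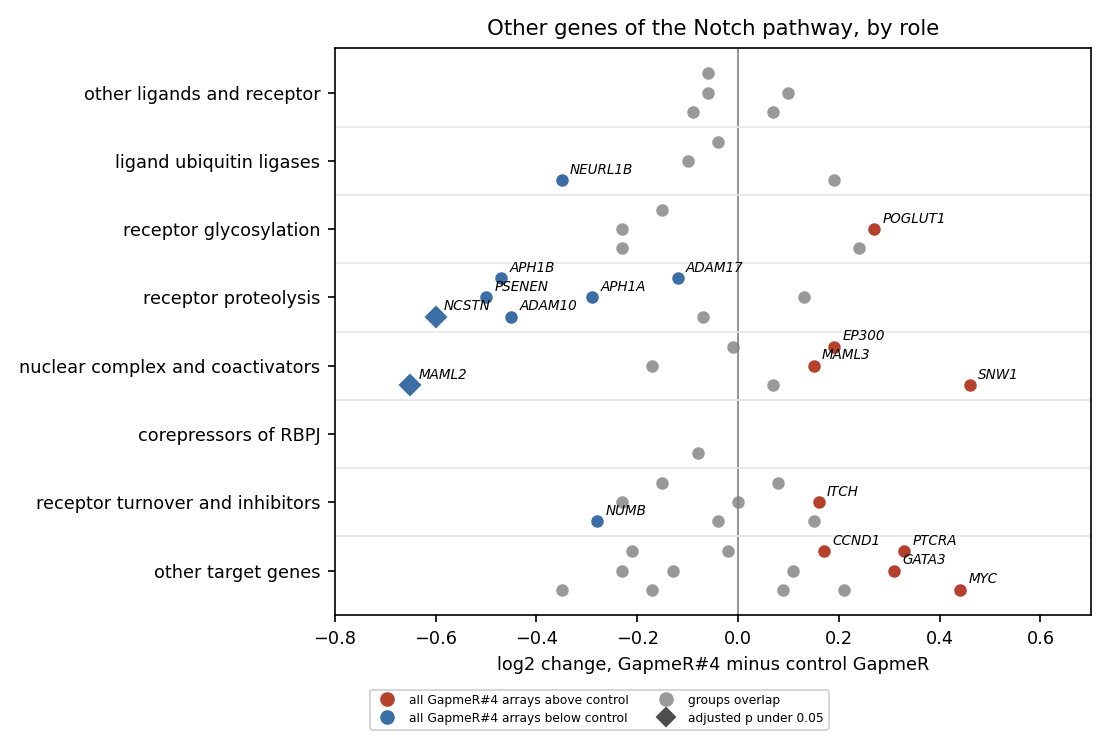
Log2 change, GapmeR#4 minus control GapmeR, of the 51 other measured Notch pathway genes, by role, 1 point per gene. Red points have all 3 GapmeR#4 arrays above and blue points all 3 below the control arrays, and diamonds passed an adjusted p of 0.05. In receptor proteolysis, 7 of 8 points lie left of 0. Over all 53617 transcript clusters, those without a gene name included, 24630 changes were below 0.

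The genes for receptor proteolysis had a median log2 change of -0.37, and 7 of 8 were below 0. Over all 53617 transcript clusters the median was 0.02 and 24630 changes were below 0. Most of these have no single gene name, and the named ones alone were called lower (2.41%) more often than higher (1.46%). The median and the count below 0 were not taken for the named ones alone. In 6 of the 8 genes all GapmeR#4 arrays lay below the control arrays, beside 16.6% of the named transcript clusters. NCSTN, which encodes the γ-secretase subunit nicastrin, fell. It read 8.81, 9.05 and 9.01 with GapmeR#4, against 9.61, 9.62 and 9.44 with control GapmeR, with a log2 change of -0.60 (SE 0.11, 95% interval -0.87 to -0.33) and an adjusted p of 0.0462 (limma). With 1 array left out the change ran from -0.66 to -0.52 and the adjusted p from 0.0739 to 0.168. PSENEN encodes another γ-secretase subunit and read 9.84, 9.97 and 9.93 with GapmeR#4 and 10.68, 10.41 and 10.15 with control GapmeR (log2 change -0.50, SE 0.15, adjusted p = 0.141). ADAM10 encodes the protease that makes the ligand-dependent cut. It read 9.17, 8.92 and 8.90 with GapmeR#4, against 9.40, 9.45 and 9.49 with control GapmeR (log2 change -0.45, SE 0.11, adjusted p = 0.0941). The rest of this set is named after its values were seen. The γ-secretase subunit genes APH1B and APH1A had log2 changes of -0.47 (SE 0.17) and -0.29 (SE 0.11), and for both, as for the protease gene ADAM17 at -0.12 (SE 0.09), the GapmeR#4 arrays lay below the control arrays. FURIN, whose protein cuts the receptor during its maturation, changed by -0.07 and PSEN2, which encodes a catalytic γ-secretase subunit, by 0.13, and their groups overlapped.

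**Figure D4:**
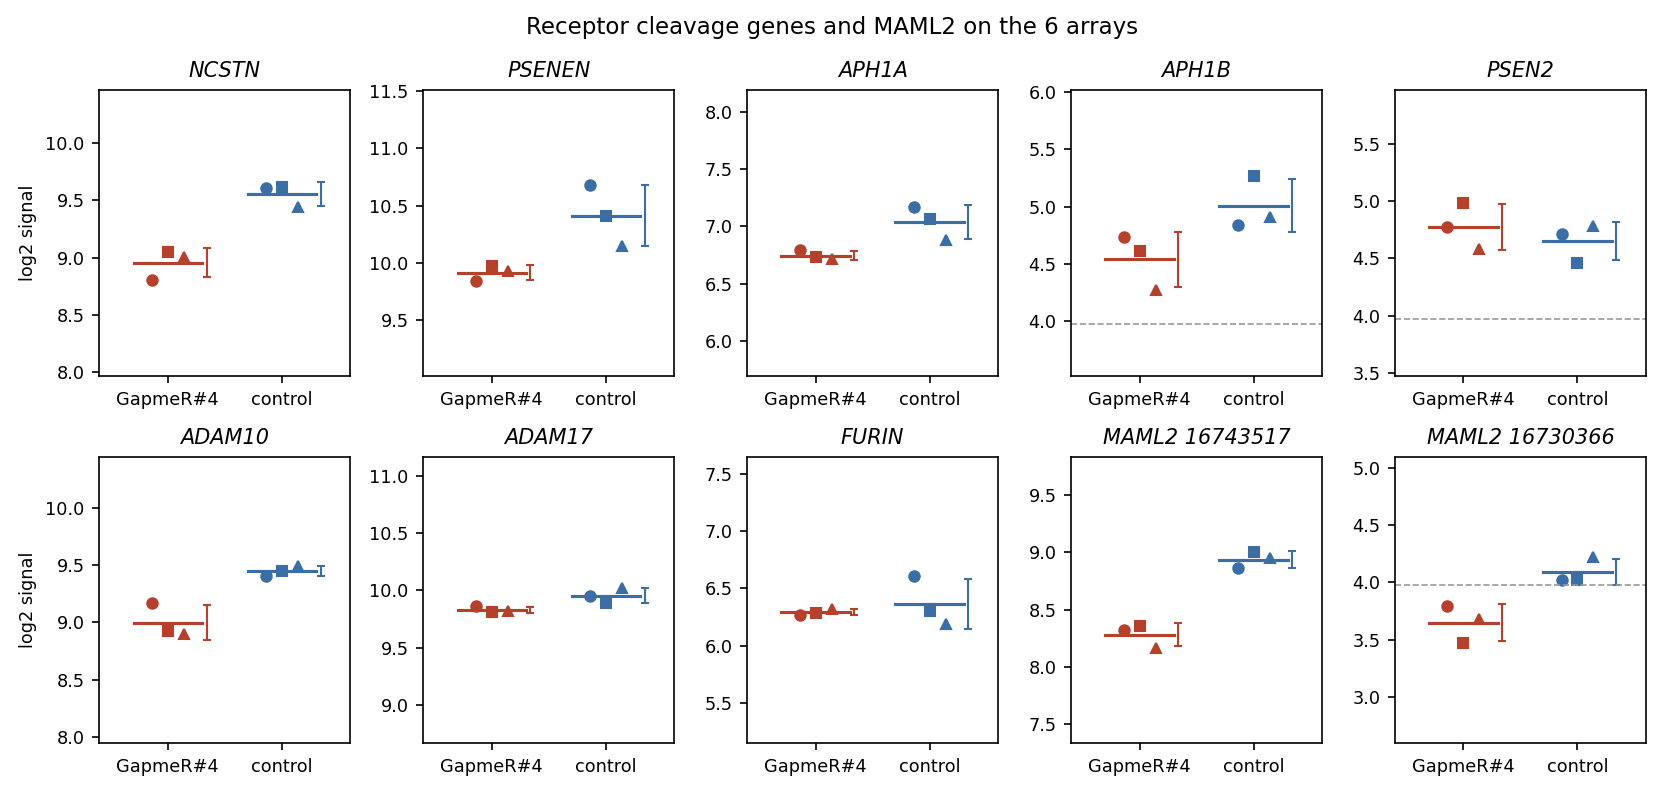
Log2 signal of the 8 measured receptor cleavage genes and of both MAML2 transcript clusters on the 3 GapmeR#4 arrays (left, red) and 3 control GapmeR arrays (right, blue). Symbols, lines and bars (mean and 1 SD) are as for the Notch genes, and the axes span equal ranges of log2 units. NCSTN and the brighter MAML2 cluster, 16743517, are the ones called lower.

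In the nuclear complex, MAML2 fell and no other gene was called. MAML2, a Mastermind coactivator, read 8.32, 8.36 and 8.17 with GapmeR#4, against 8.86, 9.00 and 8.95 with control GapmeR. The groups were 0.50 apart, and the log2 change was -0.65 (SE 0.10, 95% interval -0.90 to -0.41, adjusted p = 0.0299 in limma). With 1 array left out the change ran from -0.69 to -0.59 and the adjusted p from 0.0749 to 0.125. A dimmer second transcript cluster of MAML2, 16730366, read 3.79, 3.47 and 3.68 with GapmeR#4 and 4.02, 4.02 and 4.22 with control GapmeR, and did not pass the test (log2 change -0.44, adjusted p = 0.125). SNW1 encodes a splicing factor and Notch coactivator, also called SKIP. It read 8.87, 8.84 and 8.86 with GapmeR#4 and 8.28, 8.34 and 8.57 with control GapmeR (log2 change 0.46, SE 0.11, adjusted p = 0.0871 in limma). The histone acetyltransferase gene EP300 changed by 0.19 (SE 0.09), with groups that did not overlap. RBPJ, the DNA-binding partner of the receptor, changed by 0.07 (95% interval -0.15 to 0.29) and its groups overlapped.

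The remaining roles held no called gene. Of 13 measured further targets, 4 had all GapmeR#4 arrays above the control arrays and none had them below, beside 15.1% and 16.6% of the named transcript clusters, and their median log2 change was 0.09. MYC, a growth-promoting transcription factor, read 6.90, 7.15 and 7.30 with GapmeR#4, against 6.69, 6.71 and 6.62 with control GapmeR (log2 change 0.44, SE 0.13, adjusted p = 0.13). GATA3, a luminal and T-cell transcription factor, changed by 0.31 (SE 0.10, adjusted p = 0.184) and PTCRA, a pre-T-cell receptor chain, by 0.33 (SE 0.11, adjusted p = 0.172). The groups overlapped for HES2, HES4, HES5, HES6, HES7, HEY2 and HEYL, the other measured genes of the HES and HEY family, and HES2 and HEY2 were under the median on every array. The receptor-modifying glucosyltransferase gene POGLUT1 changed by 0.27 (adjusted p = 0.249). The Fringe genes RFNG and LFNG changed by -0.23 each and MFNG by 0.24, and the groups overlapped for all of them. Among ligand ubiquitin ligases NEURL1B changed by -0.35 (adjusted p = 0.26), with a second transcript cluster at 0.02, NEURL1 by 0.19 and MIB2 by -0.10. NUMB, an inhibitor of Notch, changed by -0.28 (adjusted p = 0.214), ITCH, a ubiquitin ligase for the receptor, by 0.16 and DTX2, of the Deltex family, by -0.23. The other ligands and receptor stayed between -0.09 (DLK2) and 0.10 (DLK1), with DLL3 at 0.07, and RITA1, the 1 measured corepressor, was at -0.08.

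The named genes whose pattern was most like that of JAG1 over the 6 arrays, by the root-mean-square difference of log2 signals after each was centered on its own mean, were GNPDA1 (0.044), SRRT (0.064), TERC (0.066), DUSP6 (0.067) and NOP16 (0.068). Their log2 changes were 0.66 for GNPDA1, 0.62 for SRRT, 0.72 for TERC, 0.61 for DUSP6 and 0.59 for NOP16. DUSP6 encodes a phosphatase of ERK kinases and TERC the RNA template of telomerase. For DNER the differences were larger, with CXCL11 (0.158), PSG9 (0.229), KCTD12 (0.238), TREM1 (0.256) and DHRS2 (0.258) the nearest. Their log2 changes were 1.43 for CXCL11, 1.24 for PSG9, 1.17 for KCTD12, 1.34 for TREM1 and 1.42 for DHRS2. All 6 points of each comparison come from the same arrays, and the likeness to JAG1 and DNER includes the difference between the groups.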

How the data were processed

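Total RNA of 6 MDA-MB-468 samples was hybridized to arrays of the type Affymetrix Human Gene 2.0 ST. Per the labels, Affymetrix Expression Console produced the values, and the authors deposited them as log2 signals of 53617 transcript clusters. Its version, the normalization and the array's genome build were not given in the sources used here. Signals were used as deposited. The number of arrays limits the precision.

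Groups follow the labels. All transcript clusters were fitted with limma 3.58.1 in R 4.3.3 (2 groups, 2-sided, Benjamini-Hochberg adjustment, threshold 0.05), and changes are GapmeR#4 minus control GapmeR. An exact permutation test of 3 against 3 arrays cannot go below a p of 0.1. The platform annotation names 16098 transcript clusters with 1 symbol. The other 37519 have no symbol or more than 1 there, and were not counted as named. Of these, 330 took a name from the study's supplement, which gave no further Notch gene. Members and lists were chosen with earlier results of these data known. Each pathway gene is represented by its brightest transcript cluster. Genes named by rule are all members, NRAD1, the called pathway genes, up to 3 of each role with the smallest p, and the 5 nearest in pattern to JAG1 and DNER. RBPJ, MFNG, the further HES and HEY genes, the rest of the receptor proteolysis genes and the cell type markers are named besides. No set test was run.

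Alternatives were the brighter 50% of transcript clusters, an intensity trend with a robust prior, the methods' t-test, quantile normalization, median centering, array weights, a block for the replicate number, gene names from the annotation alone, and leaving out each array in turn.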

Additional observations from a re-analysis of the deposited data

How the results depend on the processing

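JAG1, DNER, NCSTN and MAML2 kept their direction under every alternative run, and quantile normalization, median centering and array weights kept all 4 calls. The counts of transcript clusters called higher and lower were 614 and 760. They were 1282 and 1466 in the brighter 50%, 1176 and 1273 with an intensity trend and robust prior, 8 and 4 by the methods' t-test, and 55 and 35 with the replicate number as a block. With 1 array left out they ran from 44 to 269 higher and from 23 to 236 lower, with the fewest without control replicate 2. Among the Notch genes called higher, 1 (JAG1) was left in the brighter 50%, which does not hold DNER, DLL1, HEY1 or NRARP, and 0 were called by the methods' t-test, with the block, or with any array left out (0 to 0). Pathway genes called lower were likewise 0 by the t-test, with the block and with any array left out (0 to 0). In the brighter 50% and with the intensity trend and robust prior, 1 pathway gene was called higher, SNW1, and ADAM10 was also called lower. With the block the adjusted p was 0.129 for JAG1, 0.0511 for DNER, 0.13 for NCSTN and 0.104 for MAML2. Whether same-numbered arrays were prepared together is not given in the labels. Deviations of same-numbered arrays from their group means correlated at -0.0645, -0.00476 and -0.0179, which cannot settle it with 3 arrays per group. The near-zero changes of 3 Notch genes turned in sign: NRARP to -0.01 with array weights, and with 1 array left out NRARP ran from -0.07 to 0.11, HEY1 from -0.08 to 0.15 and DLL1 from -0.04 to 0.10. The dim signals of DLL1, HEY1 and NRARP limit what can be measured for them.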
